A study of Mus musculus with 8 samples.

Results

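The open-chromatin peaks described here lie deep inside very long genes. A peak was included when its centre fell inside a protein-coding gene of chromosomes 1 to 19 spanning more than 400 kb and lay more than 5 kb from both ends of that gene. This rule used position alone and no measured value. It selected 6062 of the 134407 peaks in the table, which is 4.62% of the 131317 peaks on those chromosomes. The peaks fell in 332 of 337 such genes. No inner peak was listed for the other 5 genes, Skint5, Skint6, Zfp993, Luzp2 and L3mbtl4. Because long genes can overlap, 109 peaks lay inside at least 2 of them.

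The libraries were ATAC-seq libraries, in which the Tn5 transposase cuts accessible DNA and inserts sequencing adapters. They came from E14, an established wild-type mouse embryonic stem cell line grown on gelatin in serum and LIF. There were 4 control libraries, described only as the control condition, and 4 libraries of paused cells, which had received 200 nM INK128 for 24 hours. INK128 inhibits the mTOR kinase, a central regulator of growth, and the treatment is used to hold stem cells in a state like embryonic diapause. All groups shared the line, the genotype and the medium. The labels do not say whether the replicates were separate cultures, so p-values measure the spread between these libraries. They come from bulk cultures, in which fewer open cells and less opening per cell cannot be told apart.

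Very long genes are long because of their introns, and many of them act in neurons, where they encode adhesion molecules, receptors, ion channels and synaptic scaffolds. Several are also the sites of common fragile regions, which break when replication is stressed, and copying or transcribing them takes many hours. In embryonic stem cells most of the neuronal ones are little expressed, and peaks within them can be enhancers, insulators or start sites of shorter transcripts. Such peaks were described gene by gene.

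Sequence is shown for start sites inside these genes, because 88 of the inner peaks overlapped a promoter window of a gene in the RefSeq table and the strongest of them were among the strongest inner peaks of all. The 4 shown belong to the enclosing gene itself and overlap an inner peak. They are the 3 such promoters whose peak rose in paused cells, in Mecom, Camk1d and Dpp6, and that of Nav2, which had the second highest mean value of all inner peaks. Each is the 250 bases upstream of an annotated start, 5′ to 3′ on the gene's strand, from RefSeq on assembly GRCm38.p6. Capitals mark matches on either strand to CCAAT, the box bound by NF-Y, or GGGCGG, the box bound by Sp1.
Mecom, chr3:30013205-30013454, minus strand: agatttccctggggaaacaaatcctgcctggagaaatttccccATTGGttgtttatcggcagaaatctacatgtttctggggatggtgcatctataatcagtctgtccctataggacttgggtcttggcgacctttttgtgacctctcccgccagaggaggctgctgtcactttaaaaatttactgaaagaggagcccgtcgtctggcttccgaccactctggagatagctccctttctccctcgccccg
Camk1d, chr2:5676047-5676296, minus strand: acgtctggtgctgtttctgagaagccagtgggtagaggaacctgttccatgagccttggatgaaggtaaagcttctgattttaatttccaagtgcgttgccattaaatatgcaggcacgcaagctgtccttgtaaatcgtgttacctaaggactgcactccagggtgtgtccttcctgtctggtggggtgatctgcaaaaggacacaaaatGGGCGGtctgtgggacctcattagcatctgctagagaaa
Dpp6, chr5:27261685-27261934, plus strand: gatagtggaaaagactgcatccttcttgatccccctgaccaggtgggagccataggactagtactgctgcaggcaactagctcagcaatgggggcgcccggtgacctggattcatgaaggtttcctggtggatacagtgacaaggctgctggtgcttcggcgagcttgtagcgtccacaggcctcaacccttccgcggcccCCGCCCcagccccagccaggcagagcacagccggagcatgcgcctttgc
Nav2, chr7:49245939-49246188, plus strand: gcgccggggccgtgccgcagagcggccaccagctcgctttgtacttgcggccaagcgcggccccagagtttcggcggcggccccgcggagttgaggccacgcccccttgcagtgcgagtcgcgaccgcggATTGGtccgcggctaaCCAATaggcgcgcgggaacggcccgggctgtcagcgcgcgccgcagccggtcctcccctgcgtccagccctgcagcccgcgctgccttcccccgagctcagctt
The windows differ in base composition. That of Nav2 held 36 CpG and 74.4% G and C, against 8 CpG and 50.4% in Mecom, 5 CpG and 48.4% in Camk1d, and 10 CpG and 61.2% in Dpp6. The median over all windows of this length in the table was 6 CpG. A CCAAT box is present in 33.8% and a GGGCGG box in 32.7% of all 32851 windows. None of the 4 windows held the TATA sequence TATAAA (in 12.4% of all windows), the E-box CACGTG (in 6.02%), the CRE TGACGTCA (in 1.55%) or the AP-1 site TGANTCA (in 6.75%), each sought on both strands.

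The deposited value of a peak is its read count divided by 1 factor per library, and every peak spans 201 bp. The shallowest library, control replicate 3, had 4434037 reads in peaks, and the deepest, control replicate 1, had 21161767. An inner peak held a median of 79 reads in control replicate 1 and 17 to 26 reads in the other 7 libraries, so a single weak peak is measured poorly outside that library. The values summed over all peaks came to 7489296 ± 138764 in control and 8353243 ± 257562 in paused libraries (SD, n = 4), with no overlap between the groups. A level set by these factors is therefore higher in the paused group before any gene is singled out. Of 8 pluripotency markers, all had a peak within 2 kb of the gene, among them Pou5f1, Nanog and Sox2. The peak at Dppa4 was too weak to be tested, and 1 of the others, at Zfp42, was called. Peaks at markers of other lineages were present too, for 5 of 5 trophoblast, 3 of 5 primitive endoderm, 5 of 6 neural and 4 of 5 fibroblast genes, and none of them was called.

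Inner peaks were sparse. A very long gene held a median of 15 of them, or 2.27 per 100 kb with an interquartile range of 1.27 to 4.05. The densest was Dst, which encodes the cytoskeletal linker dystonin, with 81 peaks or 20.7 per 100 kb. The median inner peak was 142 kb from the nearer end of its gene. The gene spans ran from 400438 bp to the 2270506 bp of Ptprd. Just inside the length limit were Fam189a1 at 400438 bp, Dst at 400775 bp and Dock4 at 400918 bp, and those just outside it included Ano4 at 396274 bp and Adk at 395996 bp. Exons and introns within the spans were not used here.

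When the inner peaks of each gene were summed per library, most of the very long genes tested were called higher in paused cells under the deposited scaling. This majority depends on that scaling: after rescaling to total reads in peaks, 40 were higher and 23 lower. Of 326 genes with at least 3 inner peaks, 174 rose and 3 fell at an adjusted p under 0.05 in limma (Benjamini-Hochberg over all 5163 autosomal genes with that many inner peaks). The shares were 53.4% and 0.920%, against a background of 29.3% of all genes higher and 2.83% lower. The median log2 change was 0.17 over the very long genes and 0.11 over all genes. The groups did not overlap in 143 of the 326 genes, or 43.9%, against 27.3% of all genes. The change was above 0 in 88.3% of the very long genes, under a scaling in which the median of all genes was itself above 0. Among single peaks it was above 0 in 63.0% of tested inner peaks and 61.3% of all tested peaks. Overlapping gene models that share inner peaks are counted separately here; with each such locus counted once, 171 of 323 genes rose (52.9%) and 3 fell.

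**Figure D1:**
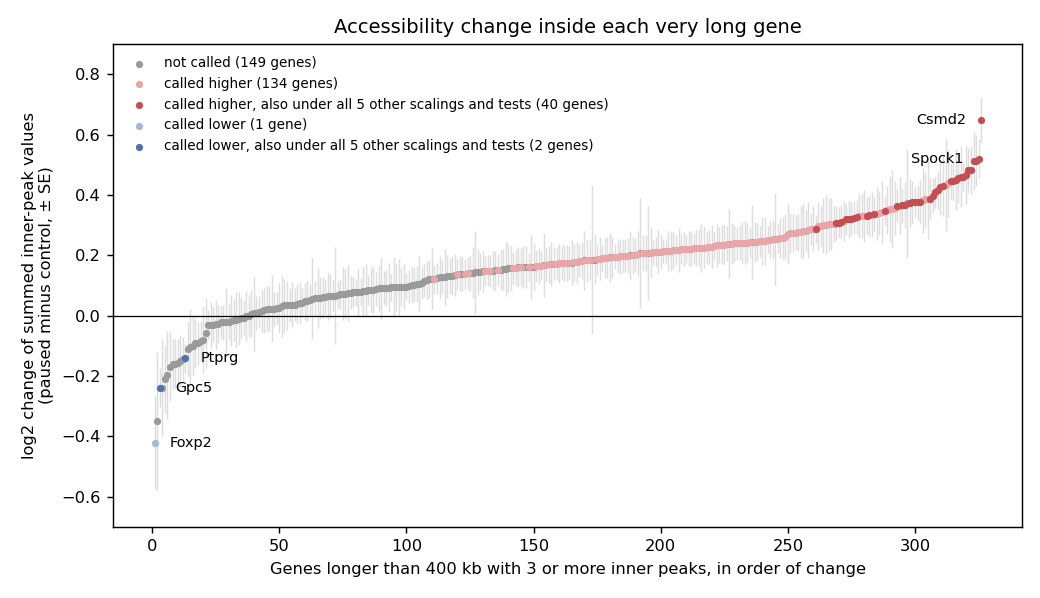
Log2 change of the summed inner-peak values (paused minus control, vertical lines ± SE) for the 326 very long genes in order of change, with colour giving the call. The changes run from -0.42 in Foxp2 to 0.65 in Csmd2, and the 40 genes called higher under every scaling and test sit at the right end, from 0.29 upward.

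How many genes pass depends on how the libraries are scaled. TMM rescaling moved the median change of all genes from 0.11 to 0.00 and left 64 very long genes higher and 12 lower (19.6% and 3.68%, background 11.1% and 8.06%). Rescaling to the total reads in peaks moved that median to -0.04 and left 40 higher and 23 lower (12.3% and 7.06%, background 6.70% and 12.5%). The distance between the median of the very long genes and that of all genes was 0.06 under the deposited scaling and under both of these. It was 0.04 after a loess correction on peak strength, which left 50 higher and 20 lower (15.3% and 6.13%, background 9.61% and 7.98%). From the recovered reads, edgeR called 76 higher and 12 lower (background 12.0% and 8.64%) and DESeq2 52 and 5 (background 7.55% and 4.55%). A total of 40 genes were called higher under the deposited scaling and under all 5 other scalings and tests, which is 12.3% of 326 against 6.35% of all genes. The library values of all 40 did not overlap between groups, and 38 of the 40 held no inner peak called lower. The 40 were selected on these same values, so neither count is separate support for their rise.

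The largest rises by the naming rule, among genes with at least 5 tested inner peaks, were found in 8 genes. Csmd2, a transmembrane protein with CUB and sushi domains (chr4:127986505-128567660, 14 inner peaks), had summed values of 337, 320, 279 and 306 in control and 534, 476, 456 and 482 in paused libraries. Every paused library was above every control library, and the log2 change was 0.65 ± 0.076 (SE, adjusted p = 8.92e-08). Spock1, which encodes the proteoglycan testican-1 (chr13:57421195-57908332, 22 inner peaks), gave 603, 591, 567 and 664 in control and 812, 972, 832 and 865 in paused libraries. Its change was 0.52 ± 0.064 (adjusted p = 2.83e-07), again with no overlap. Unc5d, a receptor of the netrin guidance cues (chr8:28646717-29219671), rose by 0.48 ± 0.079 (adjusted p = 1.57e-05), from 250, 258, 300 and 288 to 398, 371, 389 and 371. Hs6st3, a sulfotransferase that modifies heparan sulfate chains (chr14:119137516-119869815), rose by 0.48 ± 0.074 (adjusted p = 7.88e-06), from 354, 325, 308 and 335 to 478, 437, 500 and 433. These 4 genes kept their call in all 19 alternatives tried, and so did St6galnac3.

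St6galnac3, a sialyltransferase that extends O-linked glycans (chr3:153198274-153725133), stood out by the number of its peaks. Of 45 tested inner peaks 15 were higher and none lower. Its summed values were 1761, 1716, 1673 and 1824 in control and 2291, 2429, 2403 and 2470 in paused libraries, a change of 0.46 ± 0.047 (adjusted p = 9.18e-09). Dpyd, Lingo2 and Kcnb2 rested on fewer peaks. Dpyd, the rate-limiting enzyme of pyrimidine breakdown, rose by 0.51 ± 0.086 with all 9 inner peaks, while without the strongest peak the change was 0.11 and was not called. Kcnb2, a voltage-gated potassium channel subunit, rose by 0.45 ± 0.081 with all 9 inner peaks and had -0.00093 without the strongest one. Lingo2, a leucine-rich repeat protein of the neuronal surface, rose from 164, 174, 141 and 159 to 240, 238, 194 and 207, with 1 of 5 tested peaks called. The calls of Dpyd, Kcnb2 and Lingo2 were also lost when log2 values were averaged over peaks.

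**Figure D2:**
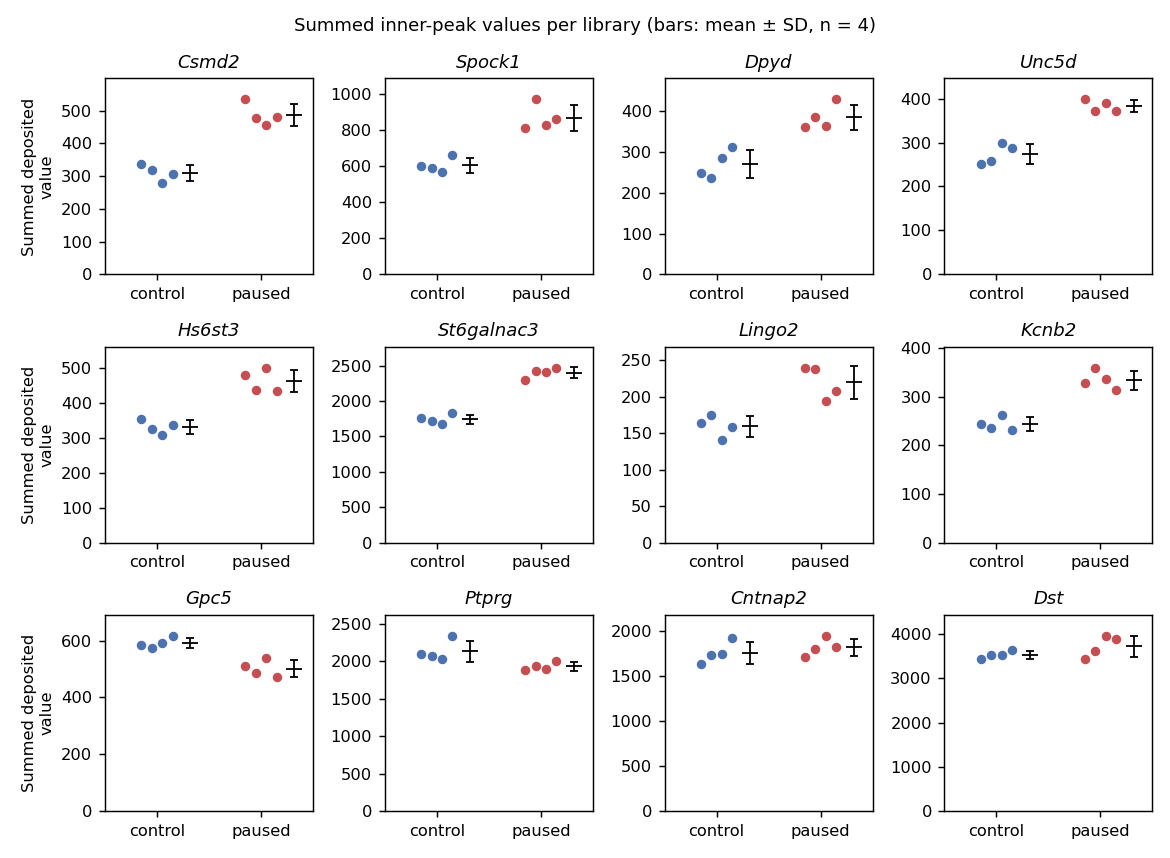
Summed deposited inner-peak value (y axis from 0) of 12 very long genes in each of the 4 control and 4 paused libraries, with mean ± SD beside the points. The 8 genes with the largest rises and the 2 with falls show no overlap between groups, while Cntnap2 and Dst overlap.

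Falls were few. Gpc5, a glypican that carries heparan sulfate at the cell surface (chr14:115092201-116525192, 19 inner peaks), fell by 0.24 on the log2 scale (SE 0.065, adjusted p = 0.00478). Its libraries gave 585, 574, 591 and 617 in control and 510, 487, 538 and 472 in paused cells, without overlap, and 4 of its peaks were lower and none higher. Gpc5 and Ptprg were the 2 genes lower under all scalings and tests, 0.613% of 326 against 2.48% of all genes, and both lost the call when log2 values were averaged over peaks. Ptprg, a receptor-type tyrosine phosphatase (chr14:11553440-12242041, 54 inner peaks), fell by 0.14 (SE 0.049, adjusted p = 0.0247), with 7 peaks lower and none higher. Its paused values of 1888, 1935, 1898 and 2010 lay below the control values of 2095, 2077, 2030 and 2341, but the call was lost without control replicate 4, without paused replicate 1 and without paused replicate 3. Foxp2, a forkhead transcription factor with 3 inner peaks, lies outside the naming rule and was named after its values were seen. It fell by 0.42 (SE 0.15, adjusted p = 0.0331), from 69.7 ± 2.23 to 52.1 ± 7.14 (SD, n = 4), and lost its call in 10 of 19 alternatives. Auts2, Fars2 and Sorcs1 were not called under the deposited scaling and were lower under all 5 other scalings and tests. Such genes made up 0.920% of the 326, against 1.88% of all genes.

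Longer genes hold more peaks, and more peaks make a smaller standard error, so genes were also compared at like numbers of inner peaks. With 3 to 5 inner peaks, 32.4% of very long genes and 21.3% of shorter genes rose. With 6 to 10 the shares were 43.9% and 30.1%, with 11 to 20 they were 52.2% and 38.7%, and with 21 or more 66.7% and 46.1%. The median change was larger in the very long genes in each of the 4 ranges, at 0.20, 0.16, 0.17 and 0.17 against 0.09, 0.11, 0.13 and 0.13. Over libraries, the median deviation of the gene sums in very long genes minus that in shorter genes was -0.0319 ± 0.0446 in control and 0.0276 ± 0.0205 in paused libraries (SD, n = 4). The difference of 0.0596 had an exact two-sided permutation p of 0.0571. This test was chosen after the data were seen.

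The role lists below count very long genes only, of which 53.4% rose and 0.920% fell, against 29.3% and 2.83% of all genes. The shares that rose in adhesion (43.2%), cytoskeleton and signalling (43.3%) and axon guidance (50.0%) lay below that 53.4%. In the other role lists they were 60.7% to 66.7%. Among single peaks, 10.6% to 15.9% were higher by role list, against 13.0% of all tested inner peaks. By function, genes for synaptic receptors, channels and scaffolds had the highest median change. Of 49 tested, 32 rose and none fell, with a median of 0.24 beside 0.17 for all very long genes and 0.11 for all genes. With TMM the counts were 15 and 0, and after rescaling to total reads 9 and 1. The genes with most inner peaks in this list were Magi1, Dlgap1, Dpp6 and Magi2, scaffolds of cell junctions and synapses and, for Dpp6, an auxiliary potassium channel subunit. Magi1 rose by 0.16 ± 0.045 (adjusted p = 0.00565) and Dpp6 by 0.25 ± 0.048 (adjusted p = 0.000115), whereas Dlgap1 had a change of 0.096 ± 0.044 and was not called. Magi2 rose by 0.15 ± 0.052 under the deposited scaling but had -0.0060 after rescaling to total reads. TMM rescaling ended the call of Magi1 and Magi2, and rescaling to total reads that of Dpp6. Members of the list among the 40 genes called under every scaling and test were Cacna2d1, Chrm3, Csmd2, Dlgap2, Grin2b, Kcnb2, Rims1, Ryr2 and Sntg1. They include a muscarinic acetylcholine receptor (Chrm3, 0.51 ± 0.097), an NMDA receptor subunit (Grin2b, 0.42 ± 0.062) and the ryanodine receptor of intracellular calcium stores (Ryr2, 0.34 ± 0.056). The median of the list stayed above 0 under all 5 other scalings and tests, at 0.084 to 0.13.

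Genes of synaptic and neural adhesion, which hold neurons together and specify their contacts, rose in 16 of 37 cases and fell in none, with a median of 0.17 (3 and 0 with TMM, 1 and 2 after rescaling to total reads). Cdh13 and Cdh4, both cadherins, rose by 0.21 ± 0.050 and 0.22 ± 0.047, and Tenm4, a teneurin, had 0.067 ± 0.047 and was not called. TMM rescaling ended the calls of Cdh13 and Cdh4, and 1 gene of the list, the calsyntenin Clstn2, was called under every scaling and test. Of 28 genes for axon guidance and morphogen signalling, 14 rose and 2 fell, with a median of 0.17 (5 and 2 with TMM, 4 and 2 after rescaling to total reads). The guidance cue Slit3 (0.12 ± 0.052) and the phosphatase Ptprn2 (0.042 ± 0.048) were not called. Robo1, a receptor of Slit cues, rose by 0.14 ± 0.054 (adjusted p = 0.0426) and had -0.018 after rescaling to total reads and -0.0079 after the loess correction. The netrin receptors Dcc (0.45 ± 0.10) and Unc5d, together with Hs6st3 and the phosphatase Ptprm, were called under every scaling and test.

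Among 28 transcription and RNA regulators, 17 rose and 1 fell, with a median of 0.17, but with TMM 5 were higher and 4 lower, and after rescaling to total reads 4 and 4. Camta1, a calmodulin-binding transcription activator, rose by 0.19 ± 0.044 (adjusted p = 0.000986), and Smyd3, a lysine methyltransferase, by 0.25 ± 0.051. Zfhx3, a homeobox transcription factor, rose by 0.12 ± 0.046 and had -0.035 after rescaling to total reads and -0.021 after the loess correction. Rbfox3, the splicing factor known as NeuN, rose by 0.35 ± 0.048 (adjusted p = 1.79e-06), and Tshz2, a zinc finger factor, by 0.41 ± 0.051 (adjusted p = 2.83e-07). Both were among the 40, as were Rbms3 and Zfp804b. Camta1 and Zfhx3 lost their calls after TMM rescaling and Smyd3 after rescaling to total reads. Cytoskeleton and signalling genes had the lowest median of the lists, 0.12, with 26 of 60 higher and none lower, and that median was -0.040 after rescaling to total reads and -0.029 after the loess correction. The counts were then 9 higher and 9 lower, and 10 and 8. In this list Arhgap26, a GTPase-activating protein, rose by 0.25 ± 0.045 (adjusted p = 5.24e-05) and lost the call after rescaling to total reads, while Nav2 (0.085 ± 0.048) and the phosphodiesterase gene Pde4d (0.093 ± 0.044) were not called. Ank3, the gene of ankyrin-G, rose by 0.38 ± 0.050 and was called under every scaling and test.

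Of 27 genes at common fragile sites, 18 rose and 1 fell, with a median of 0.17, and 19 of the 27 also stand in another list. Wwox, an oxidoreductase at one of the most fragile sites, had 0.072 ± 0.051 and was not called. Dpyd and Immp2l, a subunit of a mitochondrial inner membrane peptidase, were called under every scaling and test. Dpyd was not called without its strongest peak. Under TMM rescaling the list held 3 genes higher and 3 lower, and after rescaling to total reads 2 and 3. In 116 very long genes outside these lists, 62 rose and none fell, with a median of 0.19. With TMM 24 were higher and 4 lower, after rescaling to total reads 11 and 5, and after loess 16 and 4. One of them was Etl4, with 72 inner peaks (0.19 ± 0.041, adjusted p = 0.000458), whose call was lost after TMM rescaling.

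Of the 5 longest genes 3 were called. Ptprd, a receptor phosphatase of synapses (2270506 bp), rose by 0.20 ± 0.061, Lrp1b, a giant receptor of the LDL family (2058309 bp), by 0.24 ± 0.070, and Macrod2, an ADP-ribosyl hydrolase (1997664 bp), by 0.15 ± 0.050. Cntnap2, of the neurexin family (2241333 bp), had 0.052 ± 0.052, and Lsamp, an adhesion molecule of the limbic system (2197426 bp), had 0.023 ± 0.056, and neither was called. The calls of Ptprd, Lrp1b and Macrod2 were lost after TMM rescaling. The change of Macrod2 was -0.010 after rescaling to total reads, and that of Lrp1b was -0.0038 when log2 values were averaged over its peaks. Of the 5 genes with most inner peaks, Camta1 and Dst held 81 each, and Dst (0.077 ± 0.045) was not called. The other 3, Gm37013, Gm38666 and Gm38667, are overlapping gene models on chromosome 18 that share nearly all of their 77 to 81 peaks and were tested as 3 genes although they are 1 locus. The peak with the smallest p in that locus (chr18:37449804-37450004) was 1190 bp from an end of Pcdhb14, a clustered protocadherin. It had values of 161, 154, 196 and 194 in control and 256, 238, 281 and 262 in paused libraries.

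At the level of single peaks the shares called in very long genes were close to those of all tested peaks. Testing covered the 5754 inner peaks whose values averaged 10 or more. Of these, 747 were higher and 153 lower (limma, adjusted p under 0.05), which is 13.0% and 2.66%, against a background of 11.0% and 2.91% of all 127402 tested peaks. The other 308 inner peaks were too weak to be tested. The groups did not overlap in 1041 inner peaks, 18.1% against 17.4% of all tested peaks, and 701 of these were also called. A change of at least 2-fold was called in 130 of the 5754 inner peaks upward and 51 downward. Among all 127402 tested peaks the counts were 1824 (1.43%) and 1176 (0.923%), so the upward share was larger in inner peaks. The median change was 0.12 in inner peaks and 0.10 in all. Of the inner peaks called higher, 223 were also called under all 5 other scalings and tests, as were 84 of those called lower. These are 3.88% and 1.46% of the tested inner peaks, against 2.93% and 1.40% of all peaks. The counts under these settings were 427 higher and 237 lower with TMM (background 5.77% and 4.28%), 336 and 301 after rescaling to total reads (4.51% and 5.36%) and 407 and 190 after loess (5.10% and 3.50%). From the recovered reads edgeR gave 545 and 267 (7.13% and 5.54%) and DESeq2 229 and 87 (3.06% and 1.49%).

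The largest rises of single peaks by the naming rule were in Csmd2, Sdk1, Spock1, Dpyd, Ank3, Cdh4, Trappc9 and Lingo2. The Csmd2 peak (chr4:128164127-128164327) lies 178 kb from the nearer end of the gene. Its values were 32.5, 33.4, 13.6 and 22.0 in control and 88.8, 75.7, 85.3 and 101 in paused libraries, a rise of 1.82 (adjusted p = 2.41e-07). The lowest paused library was more than 2-fold above the highest control library. In Sdk1, which encodes the synaptic adhesion molecule sidekick-1, the peak at chr5:141393974-141394174 rose (adjusted p = 1.47e-06), from 23.4 ± 6.61 to 71.5 ± 13.4 (SD, n = 4). The Dpyd peak (chr3:119095289-119095489) rose from 53.9, 53.8, 62.7 and 64.7 to 141, 151, 140 and 197, a change of 1.39 (adjusted p = 2.95e-08). The other 5 changed by 1.36 to 1.47, and all 8 kept their call in every alternative that could test them.

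The deepest fall of a single peak by the naming rule lay inside a gene whose sum rose under the deposited scaling. That rule took called peaks of at least median strength without overlap between groups. In Dscam, an immunoglobulin adhesion molecule of neurons, the summed value rose by 0.22 ± 0.062 (adjusted p = 0.00543). The call of this sum was lost under TMM, total-read and loess scaling and in edgeR and DESeq2. The Dscam peak at chr16:96945547-96945747 fell by 1.38 (adjusted p = 4.16e-06). Its values went from 65.3, 54.9, 54.2 and 70.5 in control to 25.4, 23.7, 20.2 and 22.3 in paused libraries. The paused values were tightly grouped and all far below the lowest control value. Other large falls by the naming rule were in Cpa6, a secreted carboxypeptidase (log2 change -1.05), Utrn, the dystrophin relative utrophin (-0.91), Ptprg (-0.90) and the cadherin Cdh18 (-0.89). Those in Elmo1, Frmd4a and Ptprt were between -0.83 and -0.81. The call in Utrn was lost in DESeq2 and that in Ptprt without control replicate 3.

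Of 202 very long genes with at least 2 called peaks, 116 had only rises, 9 only falls and 77 both. No such split of shorter genes is given here, so it is not shown to be particular to very long genes. Of all called inner peaks, 83.0% were higher, against 79.0% of all called peaks. Only 5.54% of the variance of the peak changes lay between genes, with an SD of 0.42 within and 0.10 between genes. The SD within genes includes counting noise, at a median of 17 to 26 reads per inner peak in most libraries. Its part was not separated. When 252 genes of known strand were divided into 3 equal parts, 10.9% of peaks in the part nearest the start were higher, 14.9% in the middle part and 12.4% in the last.

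Both directions were most frequent in 7 genes, of 17 with at least 2 peaks each way. Rad51b, which acts in homologous recombination, had 7 peaks higher and 3 lower, and its sum rose by 0.16 ± 0.052 (adjusted p = 0.0190). The rise of smallest p lay 33.5 kb into the span (0.99), and the deepest of its falls 361 kb into it (-1.04). TMM rescaling ended the calls of the Rad51b, Grip1 and Dscam sums. Dlgap1 had 5 higher and 4 lower, Cntnap2 and Tenm4 3 of each, Frmd4a 2 and 4, and Grip1 and Dscam 4 and 2. The sums of Dlgap1, Cntnap2, Tenm4 and Frmd4a were not called. The peak of smallest p in Cntnap2 (chr6:46537662-46537862), for example, rose from 41.8, 37.0, 52.5 and 22.0 to 81.9, 96.2, 91.5 and 76.2, a change of 1.21. That of Tenm4 (chr7:96652140-96652340) fell by 1.31, from 31.8, 28.7, 33.9 and 36.7 to 10.4, 15.8, 10.9 and 14.1.

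**Figure D3:**
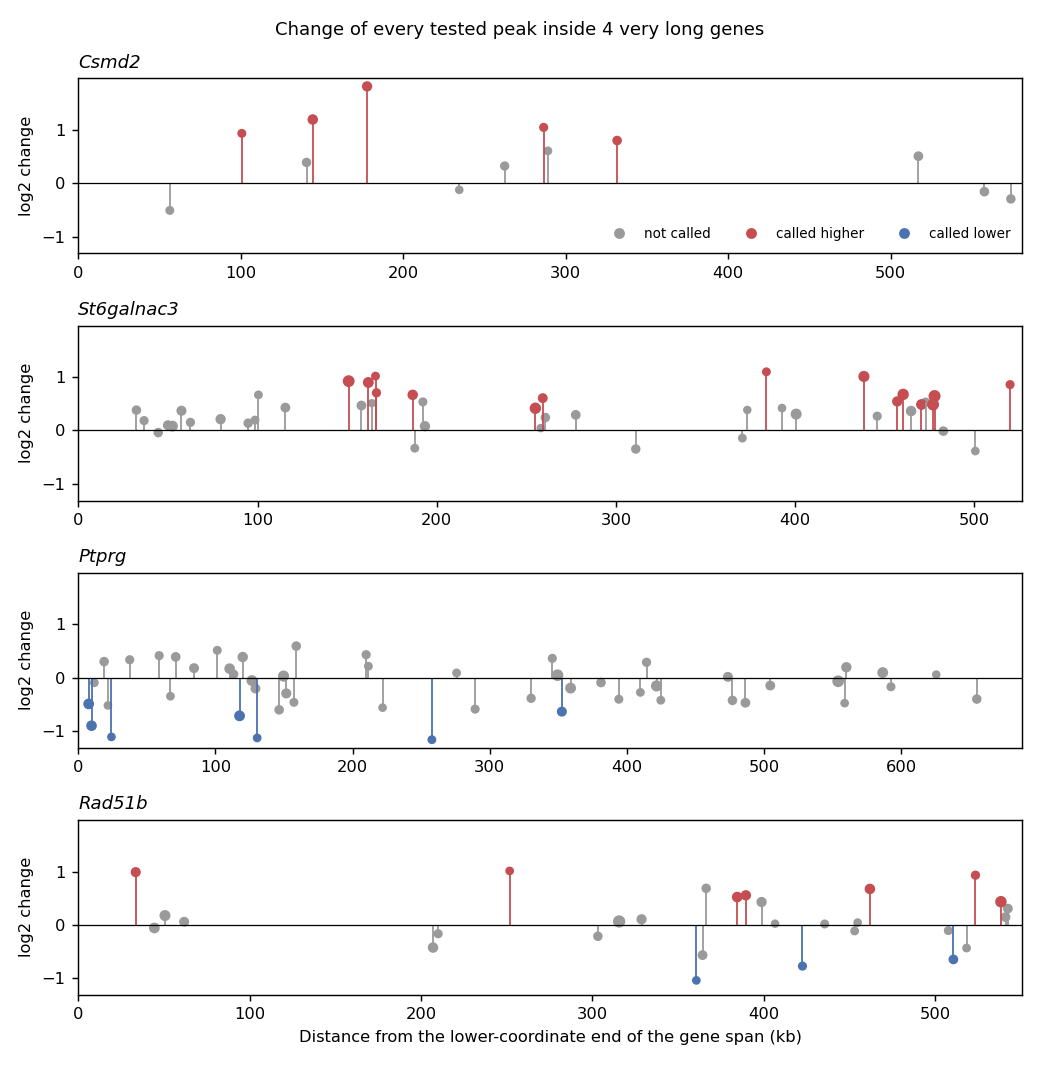
Log2 change (paused minus control) of every tested inner peak against its distance in kb from the lower-coordinate end of the gene, for Csmd2, St6galnac3, Ptprg and Rad51b; larger points are stronger peaks and colour gives the call. The 15 rises of St6galnac3 lie across the gene from 151 to 520 kb, the 7 falls of Ptprg lie between 7.5 and 353 kb, and Rad51b holds 7 rises and 3 falls.

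Against other classes of peaks, the inner peaks of very long genes moved upward slightly more than those of shorter genes and no more than peaks outside genes. The median change was 0.12 in very long genes, 0.08 in genes of 100 to 400 kb, 0.04 in genes up to 100 kb and 0.12 outside genes, and the shares called higher were 13.0%, 10.3%, 8.45% and 13.7%. Within each library, the median deviation in very long genes minus that in genes of 100 to 400 kb was -0.0602, -0.0240, -0.00657 and 0.00608 in control and 0.0246, 0.0169, 0.0332 and 0.00868 in paused libraries. The groups did not overlap, and the exact two-sided permutation p was 0.0286, the smallest that 4 against 4 can give, or 0.0571 adjusted over 4 measures. Against genes up to 100 kb the difference was 0.0824 with the same p-values, and against peaks outside genes it was 0.000397 (exact permutation p = 1, adjusted p = 1). Neither difference therefore passed the threshold after adjustment. Without control replicate 4 they were 0.0522 and 0.0997, with an adjusted p of 0.0381 by the exact permutation test over 35 arrangements. Leaving out any other library gave both differences an adjusted p of 0.0571 to 0.171 by that test. Control replicate 1, the most deeply sequenced library, had the lowest value in both, and without it the differences were 0.0297 and 0.0657. The part of depth in this was not tested.

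**Figure D4:**
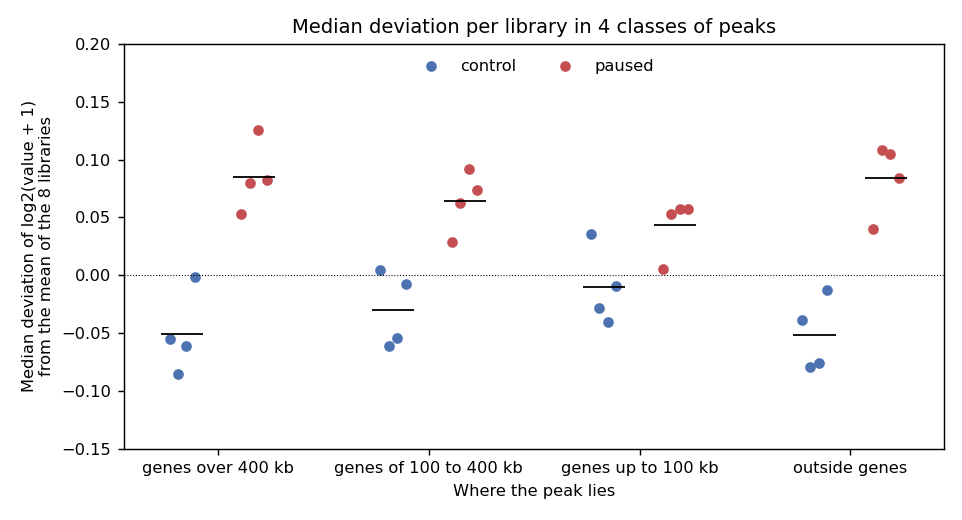
Median deviation of log2(value + 1) from the mean of the 8 libraries, for each control and paused library (points; black lines, group means), in inner peaks of genes over 400 kb, of 100 to 400 kb, up to 100 kb and in peaks outside genes. The control and paused libraries do not overlap in the very long genes, in genes of 100 to 400 kb or outside genes, and overlap in genes up to 100 kb, where control replicate 1 lies above paused replicate 1.

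The share of all reads in peaks that fell in these inner peaks was 3.21%, 3.13%, 3.23% and 3.30% in control and 3.27%, 3.28%, 3.24% and 3.23% in paused libraries, with means of 3.22% ± 0.069 and 3.25% ± 0.023 (exact permutation p = 0.429, adjusted p = 0.571). Without control replicate 4 the difference was 0.0629 in place of 0.0353 percentage points, with an adjusted exact permutation p of 0.0381. Leaving out any other library gave 0.00673 to 0.0427, with an adjusted exact permutation p of 0.533 to 0.857. All tested peaks were also divided by mean value into 10 equal parts. In the weakest part the median change was -0.05 in very long genes and -0.20 elsewhere, and in the strongest part it was 0.25 and 0.20. The inner peaks had the higher median in each of the 10 parts, but the other peaks include those near gene ends. Within these parts the difference from peaks outside genes was 0.0116 (exact permutation p = 0.457). It was 0.0481 from genes of 100 to 400 kb and 0.0968 from genes up to 100 kb (adjusted exact permutation p = 0.0571 for each). In the strongest part 29.7% of inner peaks and 17.9% of other peaks were called higher, and 0 of 185 inner peaks were called lower, against 0.183% of the others.

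**Figure D5:**
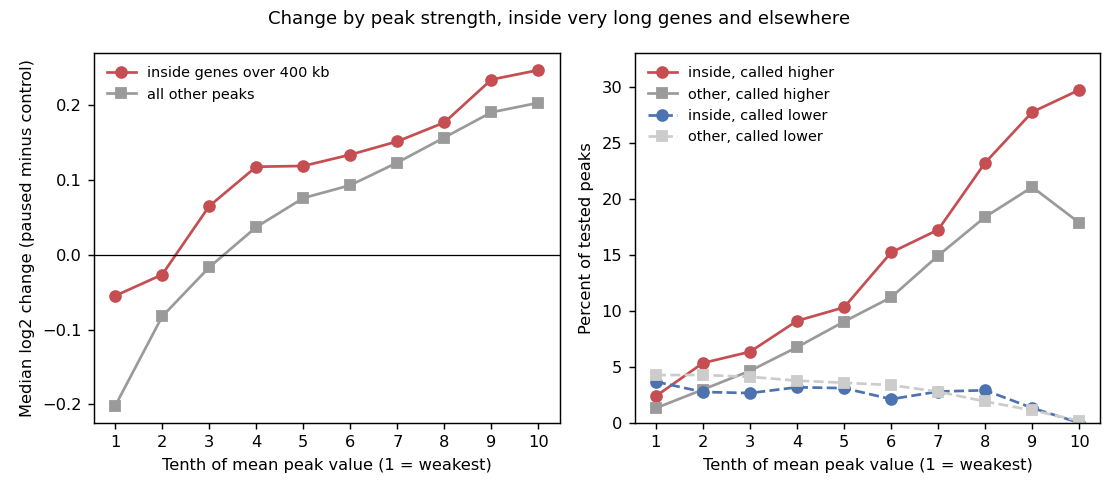
Median log2 change (left) and percent of tested peaks called higher or lower (right) in 10 equal parts of all tested peaks ordered by mean value, for inner peaks of very long genes and for all other peaks. Both medians rise with strength, and the median of the inner peaks is above that of the others in every part.

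Start sites inside the genes were strong peaks. The 87 tested inner peaks that overlap a RefSeq promoter window had a median value of 89.4, against 30.2 for the other inner peaks. Of the 87, 5 were higher (5.75%) and none lower by limma, against 13.1% of the other inner peaks higher, and the medians of the change were 0.11 and 0.12. In 46 genes, 52 tested peaks overlapped a promoter of the enclosing gene itself, and 3 of these rose. At the Mecom promoter shown above, a zinc finger oncogene, values were 96.5, 64.5, 119 and 97.0 in control and 119, 144, 152 and 130 in paused libraries (0.55 ± 0.15, adjusted p = 0.00831). The groups did not overlap, but the highest control value, 118.53, was nearly that of the lowest paused library, 118.82. At Dpp6 they were 84.0, 94.4, 79.6 and 76.4 against 122, 97.8, 130 and 118 (0.48 ± 0.13, adjusted p = 0.0138). At Camk1d, a calmodulin-dependent kinase, they were 57.7, 60.9, 40.6 and 42.6 against 71.5, 78.9, 63.6 and 68.0 (0.49 ± 0.16, adjusted p = 0.0375). At both promoters every paused library was above every control library.

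The CpG-rich Nav2 promoter, a gene of neuronal navigation, had 260, 363, 386 and 326 in control and 382, 330, 427 and 387 in paused libraries. These overlapped, and the change of 0.20 ± 0.11 was not called (adjusted p = 0.241). The other inner peaks of highest mean value were in Arhgap26, Gphn, Etl4 and Kcnn2. Of these the peak in Etl4 was called (0.34, adjusted p = 0.0276), and lost the call in 10 of 17 alternatives, while Arhgap26 (0.26), Gphn (0.20) and Kcnn2 (0.28) were not called.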

How the data were processed

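ATAC-seq was measured in 4 control and 4 paused libraries of E14 cells, made from 50000 live cells each and read as 150 bp paired ends, per the labels' protocols. FastQC, Trim Galore, Bowtie2 2.4.1, MACS3 3.0.3 and DiffBind 3.16.0 and the build mm10 (GRCm38) are named in the submitters' processing notes, which give no settings here. The signal values deposited by the authors are reads per peak divided by 1 factor per library and rounded to 2 decimals. Dividing by that step gave whole reads for 100% of values in 6 libraries and 99.99% in control replicates 3 and 4 (tolerance 0.0055). The authors also deposited log2 group means and log2 fold changes, and the p-value and FDR of their own comparison, used once in the closing section.

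Peaks were placed by their centre in gene spans of RefSeq GRCm38.p6, and matched promoter windows came from the same source. The members and lists were chosen with earlier results of these data known. Peaks with a mean value of 10 or more (127402) were tested with limma 3.58.1 (R 4.3.3) on log2(value + 1) with an intensity trend and Benjamini-Hochberg adjustment, called at 0.05. Fold changes on that scale understate those of weak peaks. For genes, inner-peak values were summed per library and tested the same way over 5163 genes. Classes of peaks were compared by exact two-sided permutation over 70 arrangements, adjusted over 4 measures. Every difference is paused minus control. The alternatives were a pseudocount of 0.1, other filters, TMM, total-read and loess scaling, edgeR 4.0.16, DESeq2 1.42.0, other length limits, a replicate block and leaving out each library.

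Named genes were the 8 largest rises and falls among called genes with at least 5 tested inner peaks, the 5 longest, the 5 with most inner peaks, those with most peaks in both directions, and for each list the members with most inner peaks; 2 genes that this rule or the length limit would name are not reported here. Named peaks were the 8 largest rises and falls of at least median strength without overlap, the 5 strongest, and the peak of smallest p in each named gene. In simulated data a log2 change of 1 was recovered in 129 of 200 peaks with none of the unchanged peaks called, and in 200 of 200 genes with 7 unchanged genes called. The simulated features shared a common dispersion, with equal numbers of rises and falls and no shift between the groups. Errors from library scaling were therefore not covered. Nor was recovery at the smaller changes of the very long genes, which ran from -0.42 to 0.65.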

Additional observations from a re-analysis of the deposited data

Results flagged for a closer look

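Within the 174 groups of 4 libraries behind the named genes and peaks, 6 libraries stood far from the other 3 of their group by Dixon's criterion, and chance alone gives about 1 in 20 groups. In the Sdk1 peak, control replicate 3 had 13.55 when the others had 26.27 to 27.47, and paused replicate 2 had 91.48 when the others had 62.29 to 66.72. The Utrn peak had 28.39 in paused replicate 2 and 52.72 to 57.68 in the other paused libraries. The Hs6st3 peak (chr14:119687996-119688196) had 66.78 in paused replicate 4 and 85.17 to 85.36 in the others. For gene sums, Camta1 reached 3654.56 in paused replicate 2 against 3337.86 to 3385.57, and Wwox had 1338.99 in paused replicate 3 against 1411.66 to 1420.01.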

How the results depend on the processing

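Scaling, test and summary all moved the counts. Inner peaks called higher and lower were 427 and 237 with TMM, 336 and 301 after rescaling to total reads, 407 higher after loess, 267 lower in edgeR, 229 and 87 in DESeq2, and 413 and 40 among 1487 peaks averaging at least 50 reads (27.8% and 2.69%, all such peaks 21.6% and 1.76%). Very long genes called were 64 and 12 with TMM, 40 and 23 after rescaling to total reads, 50 and 20 after loess, 76 and 12 in edgeR, 52 and 5 in DESeq2, and 41 and 0 when log2 values were averaged over peaks (all genes 8.08% and 3.04%).

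The log2 change turned negative in Kcnb2 without its strongest peak (-0.000927) and in Lrp1b with averaged log2 values (-0.00379). After rescaling to total reads it did so in Macrod2 (-0.0102), Grip1 (-0.00855), Robo1 (-0.0175), Magi2 (-0.00598) and Zfhx3 (-0.0346), and after loess in Grip1 (-0.000704), Robo1 (-0.00793) and Zfhx3 (-0.0206). The cause was not tested. The difference from peaks outside genes was -0.00147 for genes over 300 kb and -0.0131 for genes over 600 kb, and for the latter those from genes of 100 to 400 kb and up to 100 kb were 0.0213 and 0.0689 (adjusted exact permutation p = 0.571 and 0.343).

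Leaving out 1 library at a time gave 503 to 672 peaks higher and 94 to 174 lower (94 without control replicate 4), and 142 to 181 genes higher and 1 to 3 lower (1 without control replicate 4, paused replicate 1 or paused replicate 3). The share of reads differed by 0.00673 to 0.0629 percentage points, and the class differences were 0.0297 to 0.0522 against genes of 100 to 400 kb, 0.0657 to 0.0997 against genes up to 100 kb and -0.00666 to 0.0101 outside genes. Without control replicate 4 the first 3 measures were 0.0629, 0.0522 and 0.0997, each with an adjusted exact permutation p of 0.0381. Leaving out any other library gave each of them an adjusted exact permutation p of at least 0.0571. The outside difference was negative without control replicates 1 or 2 or paused replicates 1 or 3.

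The labels do not say what a shared replicate number means. The deviations of same-numbered libraries correlated by 0.0790, 0.0358, 0.133 and 0.0395, above every other pairing for control replicates 1, 3 and 4, while control replicate 2 correlated more with paused replicate 1 (0.0703). Pairing was therefore not taken as shown. With a replicate block 857 peaks were higher and 201 lower (all peaks 13.6% and 3.63%), and 198 genes higher and 3 lower (all genes 33.9% and 4.03%). The single inner peak is limited by its 17 to 26 reads in most libraries.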

Other observations

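In the authors' deposited table, 750 of the inner peaks had an FDR under 0.05, 651 of them higher in paused cells and 99 lower. That is 12.4% of inner peaks, against 11.0% of all peaks in the table.

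Very long genes were also described by how densely they are set with peaks. When the genes were ordered by density and divided into 4 parts, in the sparsest, 85 genes with up to 1.27 inner peaks per 100 kb, the median change of the gene sum was 0.19, and in the densest, 84 genes with at least 4.06, it was 0.18. In the 2 parts between them it was 0.16 and 0.19. From sparsest to densest, 31 of 74, 35 of 84, 53 of 84 and 55 of 84 tested genes rose, against 29.3% of all genes.

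Auts2, a chromatin regulator of neurons, Fars2, the mitochondrial phenylalanyl-tRNA synthetase, and Sorcs1, a sorting receptor, were named after their values were seen. Under the deposited scaling they changed by -0.03, -0.14 and -0.16 with adjusted p-values in limma of 0.662, 0.139 and 0.129.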
